A study of Mus musculus with 18 samples.

Results

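Female mouse embryonic stem cells (ESC) were compared with female mouse embryonic fibroblasts (MEF) for DNA methylation on the 19 autosomes. The 4 female ESC and the 4 female MEF samples were taken by their labels of cell type and sex, and they are 8 of the 18 samples of a study of X chromosome reactivation during reprogramming to pluripotency. The assay was RRBS (reduced representation bisulfite sequencing), in which bisulfite turns unmethylated but not methylated cytosine into a base read as thymine, so that each CpG has a count of methylated and of unmethylated reads. For each CpG the reads of its 2 strands were summed, CpGs with 5 or more reads in a sample were kept, and these were added up over 1 kb tiles with 3 or more such CpGs in all 8 samples. This left 50238 autosomal tiles of 52507 on the autosomes and the X chromosome. A tile's level is the percentage of its reads that were methylated, and a change is the mean level of the 4 ESC samples minus that of the 4 MEF samples, in percentage points. Loss, gain, kept and starting level are words for this comparison of 2 cell types, and no conversion of MEF into ESC was measured. The labels used here give cell type and sex, and nothing on strain, passage, culture medium or pooling. They do not say whether replicates are separate animals or cultures. All p-values therefore reflect the spread among these samples alone, and that spread may be technical.

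CpG methylation in mammals is copied to the new strand at replication by DNMT1 with its partner UHRF1, set anew by DNMT3A and DNMT3B, and oxidised by the TET enzymes. In differentiated cells most CpGs are methylated and CpG islands at gene starts are not. Exceptions with methylated CpG-rich starts are genes that are active only in germ cells and one parental copy of imprinted genes. ESC are derived from the inner cell mass of the blastocyst and MEF from the connective tissue of the midgestation embryo, and XX mouse ESC lines are known to carry less methylation than XY lines.

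The female ESC samples held 11424460 to 18987617 reads over CpGs and the female MEF samples 15691149 to 46130295, with a median of 68 to 304 reads per tile and sample. The share of reads on the X chromosome was 3.45 to 4.30% in these 8 samples and 2.81 to 2.97% in the 4 male ESC and MEF samples. The share of CpGs read on both strands was 10.1 to 11.7% in the 4 ESC samples and MEF 1, 15.9% in MEF 2, and 7.33 to 7.46% in MEF 3 and 4. By this measure MEF 1 was the only female fibroblast library like the ESC libraries, and the part that library kind plays in the results was not tested beyond the values given beside them. MEF 3 and 4 were closer to each other than any other pair within either group, with a mean chi-square of 1.29 per tile where sampling alone gives 1, against 2.43 to 6.37 for the other 5 MEF pairs and 2.08 to 2.24 for the 6 ESC pairs. They were kept as 2 samples, and results were also computed with them as 1. The files hold no expression values, so the cell type labels could not be checked against marker genes.

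Autosomal methylation was lower in the ESC. Over 325774 CpGs with 5 or more reads in all 8 samples, the mean level was 35.3, 34.6, 34.8 and 35.4% in ESC 1 to 4 and 55.5, 54.8, 56.8 and 56.7% in MEF 1 to 4. The groups did not overlap, and the gap between them was far wider than the spread within either. The means were 35.03% ± 0.374 (SD, n = 4) and 55.9% ± 0.975 (SD, n = 4), a difference of -20.9 points (exact permutation test, 2-sided, p = 0.0286, the smallest that 4 against 4 samples allow). Against MEF 1 alone, over the CpGs read in those 5 libraries, the autosomal level difference was -17.9 points.

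The difference lay more in the share of CpGs at intermediate levels than in the share at low ones. CpGs between 20 and 80% made up 52.2 to 54.7% of CpGs in the ESC samples and 21.8 to 27.4% in the MEF samples. CpGs over 80% made up 6.59 to 8.36% in the ESC and 40.3 to 47.1% in the MEF. CpGs under 20% made up 38.7 to 39.4% in the ESC and 31.0 to 32.2% in the MEF. In each of these 3 shares the groups did not overlap (exact permutation p = 0.0286 each). The shift of 29.5 points into the intermediate range was thus larger than the 7.62 points gained by the range under 20%. The same held for tiles, of which 55.0% were intermediate in the ESC and 25.2% in the MEF.

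A quasi-binomial model fitted to all 52507 tiles, with Benjamini-Hochberg adjustment over them, called a tile at an adjusted p under 0.05 and a change of 20 points or more. It called 22929 autosomal tiles lower in ESC, 45.6% of those tested, and 613 higher, 1.22% (46.9% in either direction). With 10 reads required per CpG the share called lower was 31.0%, and over the tiles read in all 18 samples 36.1%. The change was negative in 82.6% of tiles, with a median of -17.3 points. The 4 ESC levels lay under all 4 MEF levels in 27191 tiles (54.1%) and over them in 1580 (3.15%). Of the 22929 tiles called lower, 21221 were 20 points or more below MEF 1, and 18220 were so below each of the 4 MEF samples.

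Tiles that were nearly unmethylated in ESC and nearly fully methylated in MEF were few. Of 14224 tiles at 80% or more in all 4 MEF samples, 275 were at 20% or less in all 4 ESC samples and 50 at 10% or less. Only 57 tiles were at 80% or more in all 8 samples, 46 of them with 3 to 5 CpGs. A further 258 tiles were between 35 and 65% in all 8 samples. The set at 10% or less in all 8 samples was much larger, with 14196 tiles and a median of 15 CpGs.

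The tiles with the largest loss in each class of CpG number show the full range. The 3-CpG tile chr4:56872001-56873000 (all positions are on mm9) read 0, 1.32, 8.45 and 2.94% in ESC 1 to 4 and 100, 100, 95.2 and 93.0% in MEF 1 to 4 (adjusted p = 7.3e-09). The tile chr6:48547001-48548000, with 24 CpGs, read 9.42, 6.51, 6.86 and 11.2% in ESC and 97.8, 99.4, 97.1 and 98.1% in MEF (adjusted p = 7.0e-11). The tile chr5:93371001-93372000, with 35 CpGs, read 7.18, 4.67, 3.31 and 0% in ESC and 92.8, 90.6, 92.7 and 93.7% in MEF (adjusted p = 3.5e-10). In these 3 tiles every ESC sample was under 12% and every MEF sample over 90%. The other 7 named lower tiles, chosen by the same rule at 2 per class, had ESC means from 1.74% (chr11:106585001-106586000) to 12.5% (chr9:21599001-21600000), and MEF means over 92% in each. None of these 10 tiles held a placed gene start.

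Tiles that gained methylation gained less and had fewer CpGs. The tiles called higher had a median of 4 CpGs and a median gain of 28.7 points, where the tiles called lower had a median of 5 CpGs and a median loss of 37.6 points (a change of -37.6). The tile chr1:156681001-156682000, with 3 CpGs, read 87.5, 80.4, 85.7 and 70.4% in ESC and 23.9, 11.1, 16.5 and 17.2% in MEF (adjusted p = 1.8e-07). The tile chr18:61152001-61153000, with 6 CpGs, read 56.7, 68.2, 71.2 and 64.1% in ESC and 6.74, 0, 9.82 and 5.88% in MEF (adjusted p = 2.4e-08). The other 4 named higher tiles of up to 19 CpGs gained from 41.1 points (chr9:118598001-118599000) to 62.1 points (chr11:109113001-109114000). The rule for named tiles requires groups that do not overlap. The only tile of 20 or more CpGs called higher was chr17:35137001-35138000, which holds the placed start of D17H6S56E-5. It read 27.2, 38.2, 23.5 and 25.9% in ESC and 4.96, 1.87, 4.98 and 6.80% in MEF (adjusted p = 2.1e-06), and with 500-base tiles the gain at this start was 7.32 points.

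The loss in points was smaller in tiles with more measured CpGs, an order that held in the dense classes only under some ways of counting CpGs, given after the shares. The 19996 tiles with 3 to 5 measured CpGs fell from 69.9% ± 1.13 in MEF to 45.3% ± 0.547 in ESC (SD, n = 4 each), a change of -24.6 points. The 13216 tiles with 6 to 9 CpGs changed by -23.8 points, from 57.9% to 34.1%, and the 10966 tiles with 10 to 19 by -15.6 points, from 30.7% to 15.1%. The 4032 tiles with 20 to 29 CpGs changed by -6.63 points, from 11.2% to 4.59%, and the 2028 tiles with 30 or more by -3.18 points, from 5.58% ± 0.972 to 2.40% ± 0.0241 (SD, n = 4 each). In each class every ESC sample was lower than every MEF sample (exact permutation p = 0.0286, and 0.0286 after Benjamini-Hochberg adjustment over the 5 classes). MEF 3 and 4 were above MEF 1 and 2 in each class, at 6.41% against 4.75% in the class of 30 or more CpGs, and with MEF 1 as the only fibroblast sample the level difference of that class was -2.27 points.

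As a share of the MEF level, dense tiles kept less than sparse ones. The ESC level was 64.8% of the MEF level in tiles of 3 to 5 CpGs, 58.9% at 6 to 9, 49.3% at 10 to 19, 40.9% at 20 to 29 and 43.1% at 30 or more. Against MEF 1 alone the same shares were 65.3, 59.4, 50.2, 43.4 and 48.4%. The share of tiles called lower fell in the opposite way, at 60.2, 53.2, 29.9, 11.7 and 5.18% from the sparsest class to the densest. Among tiles over 50% in MEF the order turned round, at 71.2, 77.1, 84.5, 99.1 and 100%, and in the densest class all 95 such tiles were called lower. Gains were nearly all in sparse tiles, with 422 of the 613 called higher at 3 to 5 CpGs, 166 at 6 to 9, 24 at 10 to 19 and 1 beyond. The median tile had 65 reads per sample in the sparsest class and 577 in the densest, and the part of depth in these shares was not tested.

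**Figure D1:**
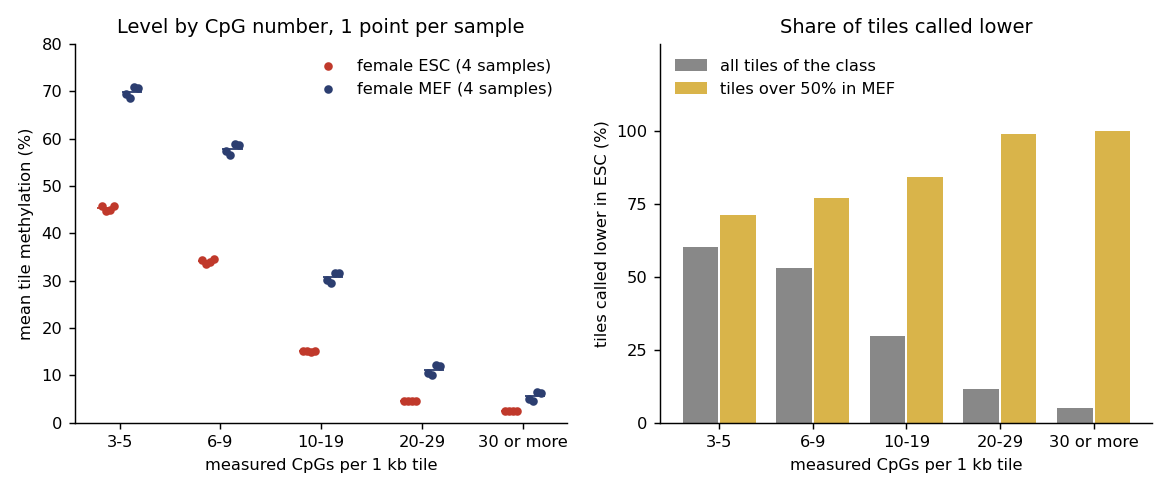
Left, mean methylation of autosomal tiles (%) in each of 4 female ESC and 4 female MEF samples by the number of measured CpGs per 1 kb tile, with group means as lines. Right, the share of tiles called lower (%) among all tiles of a class and among those over 50% in the mean of the 4 MEF samples, which also enter the call. The levels converge near 0 in dense tiles, from 69.9% and 45.3% at 3 to 5 CpGs to 5.58% and 2.40% at 30 or more, while dense tiles that were methylated in MEF were called lower at 99.1 to 100%.

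CpG number here counts measured CpGs, and the dense classes changed with how they were counted. With only CpGs read in all 8 samples, classed by their own number, the changes were -22.4, -16.9, -13.6, -14.2 and -34.6 points from sparse to dense, so the densest class then had the largest loss. That class held 14 tiles, which went from 61.3% in MEF to 26.6% in ESC, and the class before it held 212. With the same shared CpGs but the classes as above, a comparison added after seeing the data, the changes were -24.5, -24.4, -17.6, -7.50 and -3.49 points, the last over 1768 tiles. With 10 reads per CpG the classes of 10 to 19 and 20 to 29 CpGs changed by -7.86 and -3.06 points, and with 500-base tiles the classes of 20 to 29 and of 30 or more by -3.52 and -1.07. When each CpG was classed by the CpGs with 5 reads in all 8 samples within 500 bases of it, the change was largest in the sparse and in the densest classes. It went from 61.0% to 38.9% at 3 to 5 such CpGs, from 25.3% to 10.9% at 10 to 19, and from 37.4% to 14.5% over the 464 CpGs with 30 or more, the CpG itself counted. In each of these countings every ESC mean was under the MEF mean in all 5 classes. The share of the MEF level kept in ESC fell from 62.3 to 65.2% at 3 to 5 CpGs to 42.7 to 50.5% at 10 to 19 in the 4 tile countings of this paragraph, and beyond that it was 36.5 to 46.0%.

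Gene starts were placed on the deposited positions to see which promoters lost methylation. The series' build is mm9, for which no annotation was used, so RefSeq promoter sequences (from its GRCm38.p6 table, 300 bases each) were matched to the deposited CpGs by the distances between successive CpGs alone. Of 17116 promoters with 7 or more CpGs, 7045 matched at 1 place, and 6999 of these (99.3%) lay on the chromosome that RefSeq names. The start sites of 5187 genes lay in 4765 tested tiles. Of these, 59 tiles (1.24%) were called lower and 5 (0.105%) higher, against 50.3 and 1.34% of the other 45473 autosomal tiles. A start was placed only where 7 or more of its CpGs matched, and the other tiles include starts that were not placed. Among all autosomal tiles, those of 20 to 29 and of 30 or more CpGs were called lower at 11.7 and 5.18%. The median promoter tile was at 0.593% in ESC and 0.697% in MEF. Only 94 promoter tiles were over 20% in MEF, and all 32 of those over 50% were called lower.

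All 5 measured genes of a list of 15 germline genes had less promoter methylation in ESC than in MEF. Their median change was -52.2 points, where the median was -17.3 over all autosomal tiles and -0.162 over promoter tiles. The share called lower was 45.6% of all autosomal tiles and 1.24% of promoter tiles. All 5 were over 50% in MEF, and they are 5 of the 32 such promoter tiles that were all called lower, so the count is no different from that of other promoters with this starting level. The promoters of 4 of them carry the result and are shown next: the 250 bases before the start, 5′ to 3′ on the gene's strand, with the CpGs read 5 or more times in at least 2 ESC and 2 MEF samples in capitals.

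Hormad1: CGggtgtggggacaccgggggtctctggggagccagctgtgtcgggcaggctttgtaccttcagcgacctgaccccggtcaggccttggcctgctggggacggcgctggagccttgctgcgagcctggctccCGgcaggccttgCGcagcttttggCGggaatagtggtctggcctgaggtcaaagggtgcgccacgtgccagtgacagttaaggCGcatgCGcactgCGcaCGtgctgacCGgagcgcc
Mael: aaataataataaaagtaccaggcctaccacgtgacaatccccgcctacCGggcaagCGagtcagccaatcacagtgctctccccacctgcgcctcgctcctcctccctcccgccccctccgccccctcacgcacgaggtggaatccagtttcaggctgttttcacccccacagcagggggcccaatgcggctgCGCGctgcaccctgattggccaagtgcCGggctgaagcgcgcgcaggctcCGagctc
Ddx4: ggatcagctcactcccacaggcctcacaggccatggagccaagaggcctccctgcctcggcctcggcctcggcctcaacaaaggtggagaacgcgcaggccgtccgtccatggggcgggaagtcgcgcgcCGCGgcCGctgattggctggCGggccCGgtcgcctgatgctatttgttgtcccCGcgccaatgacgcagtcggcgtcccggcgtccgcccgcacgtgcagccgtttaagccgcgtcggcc
Sycp1: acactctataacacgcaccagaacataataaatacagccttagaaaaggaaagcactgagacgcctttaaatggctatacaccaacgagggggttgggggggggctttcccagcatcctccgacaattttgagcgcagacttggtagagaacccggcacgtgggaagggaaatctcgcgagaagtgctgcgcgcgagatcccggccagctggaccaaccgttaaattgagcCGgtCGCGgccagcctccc

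Hormad1 encodes a protein of the meiotic chromosome axis, and its promoter (chr3:95363349-95363598, plus strand) had 9 of its 19 CpGs read. These CpGs had mean levels of 0 to 5% in ESC and 66.7 to 100% in MEF. The tile at the start read 5.26, 2.08, 8.42 and 4.42% in ESC 1 to 4 and 90.2, 81.1, 84.4 and 87.4% in MEF 1 to 4 (adjusted p = 1.9e-09). Every ESC sample was thus under 10% and every MEF sample over 80%. Mael encodes a germ cell protein of the piRNA pathway, which silences transposons. Its tile (promoter at chr1:168168876-168169125, minus strand) read 21.1, 13.3, 8.15 and 21.5% in ESC and 89.9, 85.7, 72.6 and 73.9% in MEF (adjusted p = 1.9e-07). Along the Mael promoter the 2 CpGs farthest from the start, at 194 and 202 bases before it, were at 38.5% ± 30.8 and 39.6% ± 12.1 (SD, n = 4) in ESC, and the other 4 were at 5.56 to 16.7%.

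Ddx4 encodes the germ cell RNA helicase also called Vasa, and its tile (promoter at chr13:113442519-113442768, minus strand) read 12.5, 18.0, 17.02 and 20.6% in ESC and 69.9, 59.1, 73.1 and 75% in MEF (adjusted p = 3.2e-07). Sycp1, a filament protein of the synaptonemal complex (promoter at chr3:102740024-102740273, minus strand), kept intermediate levels in ESC. Its tile read 45.8, 46.8, 45.6 and 38.6% in ESC and 78.8, 95.2, 85.9 and 79.5% in MEF (adjusted p = 1.9e-05). The tile of Tex101, a surface protein of germ cells, read 64.9, 52.7, 69.0 and 50.6% in ESC and 89.7, 88.9, 92.9 and 94.7% in MEF (adjusted p = 3.5e-06). In none of the 5 did the groups overlap, which also held for 22138 of all 22929 tiles called lower. All 4 ESC levels lay under all 4 MEF levels in 54.1% of autosomal tiles. The ESC level of the 5 ranged from near 0 for Hormad1 to over 50% for Tex101. The Sycp1 and Tex101 tiles rest on as few as 33 and 27 reads in a sample. With MEF 1 as the only fibroblast sample the change at Tex101 was -30.4 points (adjusted p = 0.0746), in a fit whose spread comes from the ESC samples. With 10 reads required per CpG only 1 of the 5 tiles was tested, with CpGs shared by all 8 samples 2, and with 5 CpGs per tile 3. Each of those was called lower.

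The palindrome CACGTG, the E-box, lies in each of the 4 promoters printed above, starting at 57 and 20 bases before the start in Hormad1, 223 in Mael, 29 in Ddx4 and 94 in Sycp1. Among the 59 promoter tiles called lower, 15 held it in the 250 bases before the start (25.4%). The shares were 8.92% of the 4765 in tested tiles and 6.02% of all 32851 promoters in the table. Of the 32 promoter tiles over 50% in MEF, which were all called lower, 7 held it (21.9%). The E2F-type letters GCGGGA or TCCCGC are 1 motif on either strand and can overlap a CACGTG match by at most 1 base. They were in 16 of the 59 (27.1%), 41.3% of those in tested tiles and 16.9% of all. Of the 32 over 50% in MEF, 6 held them (18.75%). Both searches were of these exact letters, chosen with the values in view, and a match is a description and not a site.

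Further genes among the 59 tiles have known roles in germ cells, and they were chosen after their values were seen. Zglp1, a GATA-like factor of germ cells, read 13.6, 9.09, 8.52 and 4.23% in ESC and 84.0, 97.96, 84.9 and 85.9% in MEF. Hsf5, a heat shock factor of the testis, had means of 8.98% ± 5.09 and 85.0% ± 2.15 (SD, n = 4 each), and Dmrtb1, a DM domain factor of the testis, 19.9% and 90.5%. The tile of Slc25a31, the ADP/ATP carrier of male germ cells, was at 25.7% in ESC and 87.6% in MEF. Hormad2, the paralog of Hormad1, was at 3.93% and 51.0%, and Boll, an RNA-binding protein of the Dazl family, at 5.60% and 43.4%. Sox30, a Sox factor of the testis, was at 2.57% and 29.3%, and with only CpGs shared by all 8 samples its change was -17.9 points, under the 20 required. Smc1b, a meiotic cohesin subunit, and Ribc2 share a tile at 3.30% in ESC, which read 39.2, 17.5, 51.5 and 56.4% in MEF 1 to 4, the MEF samples varying more than the ESC.

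Of the 5 measured genes on a list of 20 imprinted genes 3 were called lower, against 1.24% of promoter tiles and 45.6% of all autosomal tiles. A fall of 20 points needs a MEF level of at least 20%. Over 20% in MEF were 94 promoter tiles, where 59 were called lower, and 3 of the 5 imprinted tiles, which were all called lower. The median change over the 5 was -27.6 points, and in these 3 the ESC level was near 0. Mcts2, an imprinted retrogene, read 0.326, 0.697, 0.366 and 0% in ESC and 44.5, 36.7, 42.7 and 50.1% in MEF (adjusted p = 4.9e-09). Plagl1, which encodes a zinc finger factor and shares its tile with the imprinted RNA Hymai, read 0.370, 3.05, 2.06 and 0.699% in ESC and 37.6, 38.6, 42.1 and 43.4% in MEF (adjusted p = 4.6e-09). Igf2r, the receptor that removes IGF2, read 1.23, 3.40, 0.347 and 4.66% in ESC and 42.1, 24.0, 23.1 and 30.9% in MEF (adjusted p = 3.5e-06). In each of the 3 tiles every ESC sample was under 5% and every MEF sample over 23%. The placed starts of Gnas and Grb10 were at 2.06% or less in all 8 samples. A tile at a start of Commd1, whose intron holds the imprinted gene Zrsr1 and which was chosen after its values were seen, was at 1.32% in ESC and 36.5% in MEF, while the tile at its other placed start was at 2.44% and 0.445%.

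**Figure D2:**
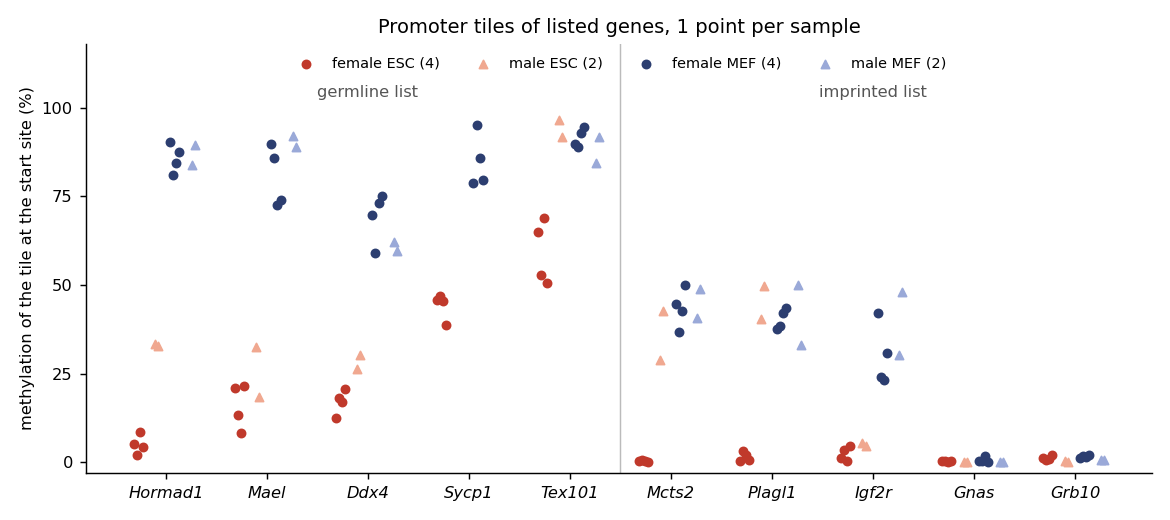
Methylation (%) of the 1 kb tile at the start site of 5 germline and 5 imprinted genes, 1 point per sample, in female ESC and MEF (circles, 4 each) and male ESC and MEF (triangles, 2 each, where measured). All 4 female ESC lie under all 4 female MEF in 8 of the 10 genes, and in 54.1% of all autosomal tiles. At Mcts2 and Plagl1 the male ESC lie near the MEF.

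No tile of the remaining lists was called. The starts of the pluripotency genes Klf4 and Tfcp2l1 and of the fibroblast gene Twist2 were under 5% in each of the 8 samples, as the only measured members of lists of 15 and 12. Of 8 genes of DNA methylation itself, 5 were measured and none was called. Dnmt3a, a de novo methyltransferase, had the highest mean in MEF, at 1.63, 0, 4.41 and 6.58% in ESC and 16.1, 2.40, 15.4 and 19.3% in MEF, with overlapping groups (adjusted p = 0.00307, a change of -10.2 points, under the 20 required). The 5 promoter tiles called higher included Rgcc, a regulator of the cell cycle also chosen after its values were seen, at 24.3, 37.3, 19.1 and 22.02% in ESC and 1.69, 0.206, 1.72 and 2.35% in MEF (adjusted p = 9.6e-07).

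The split between MEF libraries was more frequent among the promoter calls. In 14 of the 59 promoter tiles called lower (23.7%), MEF 3 and 4 were 20 points or more above MEF 1 and 2, against 2.46% of all tiles called lower and 2.27% of all tiles. The largest such gap was at Parn, which read 8.87, 5.52, 97.7 and 93.5% in MEF 1 to 4 and 2.63% in ESC. Ptprf, Rusc2, Il6ra, Rabgap1 and Rhov were others, and of the genes described above only Smc1b and Ribc2. In 45 of the 59 tiles the ESC were 20 points or more below MEF 1, and with MEF 1 as the only fibroblast sample 51 promoter tiles were called lower. The count was 39 with 500-base tiles and 36 with promoters placed by 10 or more CpGs.

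The ESC level rose with the level that a tile had in fibroblasts, but along a flattened line. To keep the error of the starting level out of the comparison, tiles were binned by the mean of MEF 1 and 2 and compared with MEF 3 and 4. Tiles under 10% were at 2.29% ± 0.0590 (SD, n = 4) in ESC and 3.33% in MEF 3 and 4. Tiles from 40 to 50% were at 34.2% ± 0.349 in ESC, and tiles from 80 to 90% at 49.3% ± 0.530. Tiles at 90% or more were at 54.5% ± 0.715 in ESC, against 90.8% in MEF 3 and 4. As a share of the level in MEF 3 and 4, the ESC level was 68.8% in the lowest bin and 71.4% from 10 to 20%. It was 65.1% from 40 to 50%, 57.4% from 80 to 90% and 60.02% in the highest. The share in the lowest bin depends on the fibroblast samples used as reference. Over the tiles read in 12 samples, male MEF 1 and 2 were at 1.90 and 2.72% in that bin, and female ESC had a mean of 2.23%. With MEF 3 and 4 setting the bins and MEF 1 and 2 compared, the ESC level was 29.5% in the bin from 40 to 50% and 49.9% in that from 80 to 90%.

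**Figure D3:**
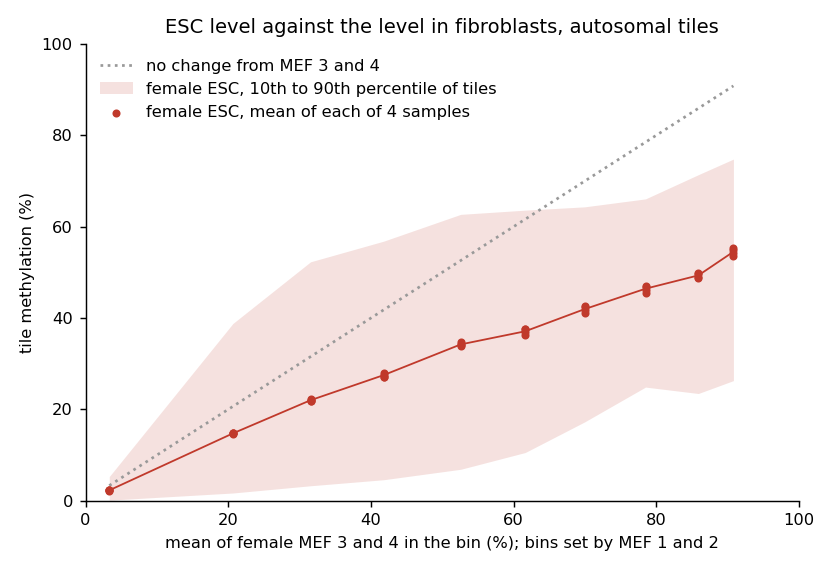
Mean methylation (%) of autosomal tiles in each of 4 female ESC samples against the mean of female MEF 3 and 4, in 10-point bins set by MEF 1 and 2, with the 10th to 90th percentile of tile means as a band and no change as a dotted line. The ESC means rise from 2.29% in the lowest bin to 54.5% in the highest and leave the dotted line further behind at higher levels.

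Single tiles scattered around these means. In the bin from 80 to 90%, the 10th and 90th percentiles of the ESC tile means were 23.5 and 71.4%, and the SD across tiles was 17.7 points, against 6.56 in MEF 3 and 4. In the bin from 40 to 50% the SD across tiles was 20.6 points in ESC and 13.3 in MEF 3 and 4. The share of tiles called lower rose from 0.166% in the lowest bin through 43.2% at 40 to 50% to 81.9% in the highest. Tiles called higher came from the lower bins, with 169 from under 10%, 161 from 10 to 20%, 130 from 20 to 30%, 3 from 60 to 70% and 1 from 70 to 80%. By the mean of all 4 MEF samples, 300 of the 613 started under 20%, 235 from 20 to 40% and 2 over 60%.

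CpG number mattered at a given starting level too. Among tiles from 80 to 90%, the ESC level was 53.6% at 3 to 5 CpGs, 49.2% at 6 to 9, 40.6% at 10 to 19, 31.8% at 20 to 29 and 36.7% at 30 or more. The SD over the 4 ESC samples was 0.408 to 0.703 points in these 5 sets, which measures how alike the samples are and not the spread across tiles. Across the tiles of this bin the SD in ESC was 17.7 points, and the densest set held 56 tiles. The steps between the sets were not tested. In tiles from 10 to 20% the ESC level fell through all 5 classes, at 21.9, 14.4, 8.45, 5.75 and 4.74% from sparse to dense. There the sparsest class was not below its level in MEF 3 and 4, at 20.8%. The densest class, 28 tiles of which 17.9% were called lower, was at 4.74% in ESC, below its own 24.2%. That 24.2% lay above the range of 10 to 20%, which the other MEF samples set, and the ESC level lay under this range. How much of the gap in the densest class comes from the difference between MEF libraries was not tested. Tiles over 70% in ESC were 14.4% of the 6263 sparsest tiles from 80 to 90%, 13.6% at 6 to 9 CpGs and 11.0% at 10 to 19. They were 0.311% of the 322 tiles with 20 to 29 CpGs. From 90 to 100% these shares did not fall with CpG number, at 22.1, 19.8 and 27.1% with 3 to 5, 6 to 9 and 10 to 19 CpGs.

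Tiles called lower lay next to each other more often than their share among adjacent tiles. Of the directly adjacent tested tiles beside a tile called lower, 75.3% were also called lower, where 27.3% of all tiles with a tested adjacent tile were. At 2 to 5 kb the shares were 51.8 and 39.2%, at 6 to 20 kb 47.5 and 44.2%, and beyond 100 kb, up to 1000 kb, 44.5 and 43.4%. With both tiles at 60% or more in MEF 1 and 2, the adjacent share was 88.2% against 77.3% of all such tiles. Among tiles of 10 or more CpGs it was 81.4% against 12.2%. Tiles called higher were rarer and also lay together, with 24 of 93 adjacent tiles also higher (25.8%), where 0.537% of all tiles with an adjacent tile were. At 2 to 5 kb the shares were 8.92 and 1.26%. The adjacent share of higher tiles was 12.5% with 5 or more CpGs per tile and 16.5% with MEF 1 as the only fibroblast sample. The correlation of the change between adjacent tiles was r = 0.75 over 8652 pairs and 0.24 at 2 to 5 kb. After the mean change of each CpG class and starting bin was taken away it was 0.53 and 0.30, and 0.03 beyond 100 kb. These are correlations across tiles that share their libraries, given as a description.

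**Figure D4:**
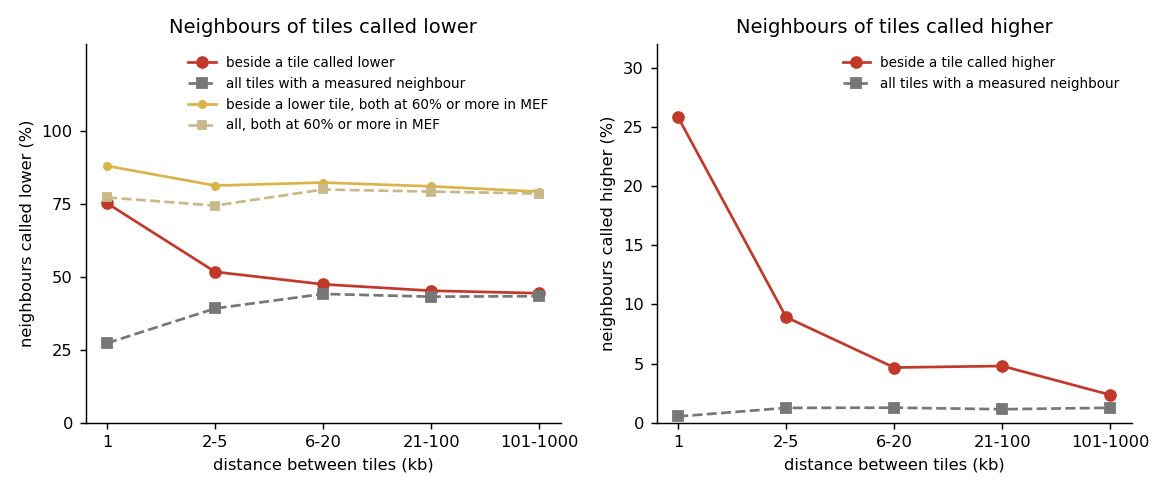
Share of neighbouring tested tiles (%) that carry the same call, by the distance between tiles (kb), for tiles called lower (left) and higher (right), beside the share among all tiles with a neighbour at that distance. The 2 lines are apart for adjacent tiles (75.3 and 27.3% for lower, 25.8 and 0.537% for higher) and nearly meet beyond 20 kb for lower calls.

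Long runs were few. Tiles with the same call and no other tested tile between them, at gaps of at most 5 kb, formed 19387 runs of lower tiles, of which 16549 were single tiles and 48 had 5 tiles or more. The longest, 14 tiles with 108 CpGs at chr18:37880001-37927000, read 9.09, 8.16, 11.4 and 9.44% in ESC 1 to 4 and 41.2, 43.8, 47.7 and 48.2% in MEF 1 to 4. The second, 13 tiles with 191 CpGs at chr3:93084001-93097000, read 65.4, 66.9, 66.9 and 64.3% in ESC and 92.4 to 93.2% in MEF, and its tiles changed by -24.1 to -31.0 points. The third, 10 tiles at chr4:141019001-141036000, read 31.1, 32.2, 31.4 and 30.01% in ESC and 88.0 to 90.8% in MEF. The 3 runs thus started and ended at very different levels, and in each the spread over the 4 ESC samples was far smaller than the change. The longest runs of higher tiles had 3 tiles each. They were at chr8:123600001-123604000 (45.3% in ESC, 6.08% in MEF), chr12:57625001-57631000 (44.7 and 11.2%) and chr14:13179001-13184000 (37.7 and 12.03%).

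The loss was present on all 19 autosomes and differed little between them. The mean change ran from -16.7 points on chromosome 19 to -21.5 on chromosome 3, and 39.4 to 49.5% of tiles were called lower, the lowest share on chromosome 19 and the highest on chromosome 18. Against all other autosomes, chromosome 19 changed by 3.51 points less and chromosome 3 by 1.42 points more (a deviation of -1.42). In 15 of the 19 chromosomes the deviation passed 0.05 (exact permutation tests, adjusted p = 0.0362 over 19), 5 with a smaller loss and 10 with a larger one. With any 1 sample left out, or MEF 3 and 4 counted as 1, the exact test can no longer reach 0.05 after adjustment, and 0 of 19 passed.

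The deviations followed how methylated a chromosome was in MEF. The mean MEF level of tiles was 43.2% on chromosome 19 and 55.0% on chromosome 3, and across the 19 chromosomes the deviation and the MEF level had r = -0.83, given as a description since both hold the MEF samples. Set against tiles of the other autosomes with the same CpG class and starting bin, and with MEF 3 and 4 as the reference, chromosome 19 differed by -0.0109 points. The range over chromosomes was then from -1.72 points on chromosome 17 and -1.69 on chromosome 11 to 1.29 on chromosome 14 and 1.92 on chromosome 13. The matched ESC deviation of chromosome 13 was 1.81 ± 0.106 (SD, n = 4) and that of chromosome 17 was -1.71 ± 0.158. With 10 reads required per CpG they were smaller, at a matched change of 0.827 and -0.829 points. The median log2 ratio of reads in ESC to MEF 1 stayed between -0.07 (chromosome 16) and 0.07 (chromosome 17) with 0 as the median over tiles.

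**Figure D5:**
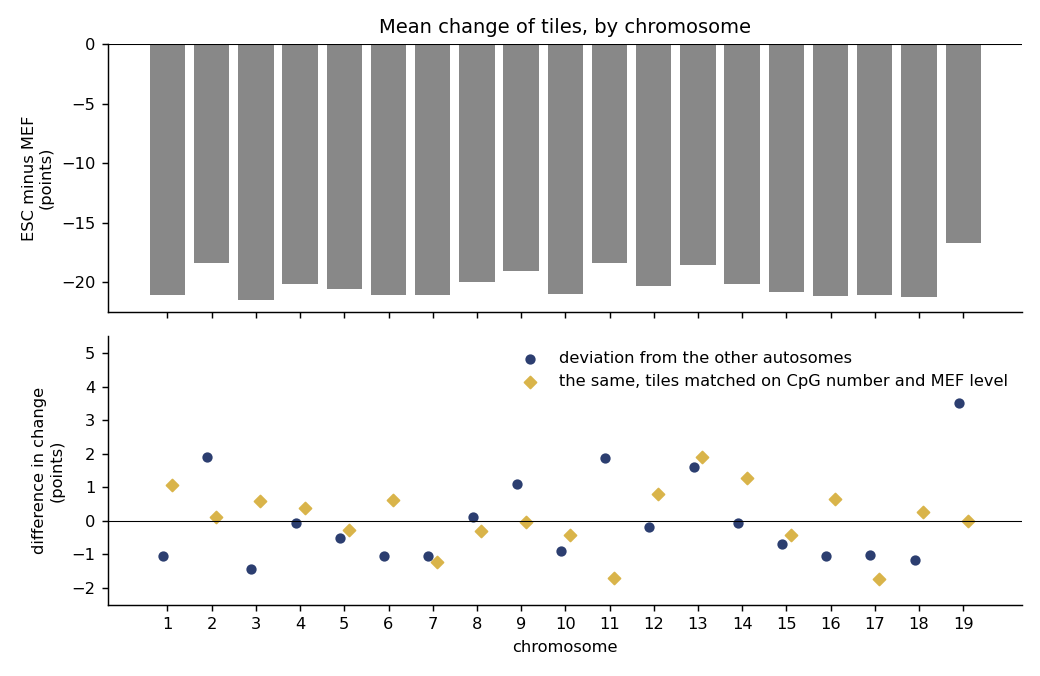
Top, mean change of autosomal tiles (ESC minus MEF, percentage points) on each chromosome. Bottom, the deviation of each chromosome's change from that of the other autosomes, before (circles) and after (diamonds) matching tiles on CpG class and MEF level, with MEF 3 and 4 as the reference after matching. Chromosome 19 stands out before matching, at 3.51 points, and lies at -0.0109 after it.

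The male ESC and MEF samples, 2 each, allow the same comparison in XY cells. Over 45222 autosomal tiles tested in all 12 samples, the female change was -19.8 points and the male change -5.98. Male ESC 1 and 2 were at 44.8 and 45.3% and female ESC at 29.3 to 29.9%, while male MEF were at 50.9 and 51.2% and female MEF at 48.1 to 50.3%. The sexes thus differed by more in the ESC than in the MEF. In the quasi-binomial model, the change was called more negative in female than in male cells in 9944 tiles (22%) and less negative in 68 (0.15%), both at 20 points or more and an adjusted p under 0.05. MEF 1, the 2 male ESC and male MEF 2 are libraries of the ESC kind. Over these and the female ESC the changes were -19.98 and -5.35 points, with 0 of 59196 tiles called and 12972 at an unadjusted p under 0.05. In that fit each sex has 1 MEF sample, which is assumed to vary like the ESC samples, so its count of calls cannot be set against the 9944.

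The difference between the female and male changes was called mostly in sparse tiles. It was called in 33.8% of tiles with 3 to 5 CpGs, where the female change was -24.7 points and the male change -2.62, in 28.3% at 6 to 9 and in 8.59% at 10 to 19. At 20 to 29 CpGs it was called in 0.929%, and there the changes were -6.54 and -4.56 points. The male samples read 20061 of the tiles called lower in the female cells. Of these, 35.8% were also 20 points or more lower in male ESC than in male MEF. That is a difference between means of 2 samples each and not a call, and its share over all tiles was not computed. The mean male change was -16.1 points in these tiles and -5.98 over all 45222.

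At promoters the male ESC differed from gene to gene. Hormad1 read 33.5 and 32.7% in male ESC and 83.8 and 89.5% in male MEF, a smaller loss than in female cells (adjusted p of the difference 0.000612). The Mael tile read 32.5 and 18.3% in male ESC and 92.1 and 89.0% in male MEF, and its change differed by 0.639 points between the sexes (adjusted p = 0.435). Tex101 read 96.5 and 91.7% in male ESC and 84.3 and 91.7% in male MEF (adjusted p = 0.00104 for the difference). Plagl1 read 40.5 and 49.6% in male ESC and Mcts2 28.7 and 42.6%, where each female ESC sample was under 4% (adjusted p = 0.000139 and 0.000102 for the difference of the changes). Igf2r was low in male ESC too, at 5.53 and 4.65% (adjusted p = 0.579). These adjusted p-values come from the quasi-binomial model with Benjamini-Hochberg adjustment over all tiles tested in the 12 samples.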

How the data were processed

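The deposited tables give counts of methylated and unmethylated reads per CpG and strand on mm9, per the submitters' processing notes for the build; the sources used here name neither the authors' aligner nor their caller. Strands were added, CpGs with 5 reads kept and 1 kb tiles of 3 CpGs summed. A quasi-binomial model with 1 mean per group and a dispersion moderated as in limma (never under 1) was fitted to the counts of all tiles of the 8 samples, in Python 3.11.15 with numpy 2.4.6 and scipy 1.17.1, and adjusted by Benjamini-Hochberg. On simulated data it called 98 of 100 tiles lowered by 40 points, 55 of 100 lowered by 25, 80 of 100 raised by 25, and 0 of 52107 unchanged ones. Group levels were compared by exact permutation tests. Named tiles were the 2 with the largest called change per CpG class and direction, with 20 reads in every sample, groups apart and 100 kb spacing, the 3 longest runs per direction, and the chromosomes of highest and lowest deviation. Members and gene lists were chosen with earlier results of these data known. The gene lists were to be used with an mm9 annotation only; placing RefSeq promoters by CpG spacing (7 or more matched CpGs, 1 place, the named chromosome), the matched chromosome comparison and shared CpGs under the original CpG classes were added after seeing the data. Alternatives tried are other read minimums, read caps, tile sizes, CpG sets, limma 3.58.1 on log2 ratios (prior count 1), a replicate block, all 18 samples, libraries of the ESC kind, and each sample left out.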

Additional observations from a re-analysis of the deposited data

Results flagged for a closer look

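The change, ESC minus MEF, differed between the female and the male samples, where sex cannot be told apart from cell line or culture. By the test of the difference itself, 9944 autosomal tiles had a more negative change in female cells and 68 a less negative one. These were 22% and 0.15% of the tiles tested. Among the promoters described, those past 20 points with an adjusted p under 0.05 in the quasi-binomial model are given first. The change in female cells minus that in male cells was -27.2 points at Hormad1, -30.7 at Hormad2, -34.0 at Mcts2, -42.4 at Plagl1, -31.8 at Slc25a31, -34.3 at Smc1b, -38.3 at Tex101 and -35.4 at Zglp1. It was smaller, with an adjusted p under 0.05, at Ddx4 (-19.6), Commd1 (-14.8), Hsf5 (-10.4) and Sox30 (-5.94). At Mael (0.639), Igf2r (6.41), Dmrtb1 (-7.57), Boll (-4.13), Rgcc (-11.1) and D17H6S56E-5 (13.4) the adjusted p was over 0.05, and the Sycp1 tile did not pass the read minimum in all 12 samples.

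Of 100 groups of 4 samples checked, 4 held a sample far from the other 3, where chance gives about 1 in 20. ESC 4 had 8.36% of CpGs over 80%, the others 6.59 to 6.85%. It also read 38.6% at Sycp1, the others 45.6 to 46.8%. ESC 3 read 7.76% in the tile chr7:4981001-4982000, the others 3.56 to 4.15%. MEF 2 read 97.96% at Zglp1, the others 84.0 to 85.9%.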

How the results depend on the processing

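No change in points switched its sign under an alternative, the only reversal looked for. The order of the dense CpG classes and the number of chromosomes past the threshold did depend on the alternative, as given below. The 17 named tiles kept their call under each alternative that gave them a value (272 values), and the 20 named promoters in 338 of 342. The exceptions were Sox30 (-17.9 and -18.0 points with shared CpGs and with 500-base tiles), D17H6S56E-5 (7.32 points with 500-base tiles) and Tex101 (-30.4 points, adjusted p = 0.0746, with libraries of the ESC kind only, where the 1 MEF sample is assumed to vary like the ESC samples).

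Alternatives that test fewer tiles gave fewer calls. With 10 reads per CpG, 6730 tiles were lower and 197 higher of 21732 tested (31.0 and 0.906%), 1 germline tile was tested and lower, the ESC level was 29.2% in the bin from 40 to 50% and 46.3% in that from 80 to 90%, 69.2% of tiles beside a lower one were lower, and the change was more negative in female cells in 2837 tiles and less in 19. With 5 CpGs per tile, 7732 were lower and 136 higher of 23684 (0.574% higher), 3 germline tiles were lower, the bin levels were 26.7 and 44.8%, the adjacent shares 80.3% (lower) and 12.5% (higher), and the sex difference was called in 2381 tiles (11.1%) and 19. All 18 samples in 1 model on shared tiles gave 11614 lower and 300 higher of 32195, where the 8-sample fit calls 11627 and 304 of the same tiles. Shared CpGs moved the densest class most, to -34.6 points over 14 tiles, and that of 20 to 29 CpGs to -14.2. They gave 2 germline tiles, 49.9% in the bin from 80 to 90% and an adjacent share of 77.9%. With 500-base tiles the densest class changed by -1.07 points, 39 promoter tiles were lower, the bin levels were 33.6 and 48.1% and the adjacent shares 85.9 and 37.5%. With 3 reads per CpG the bin levels were 35.8 and 50.5% and the adjacent share 74.1%. With MEF 3 and 4 setting the bins the levels were 29.5 and 49.9%. Promoters placed with 10 or more CpGs gave 36 lower tiles, a choice made after seeing the data.

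Alternatives with fewer samples cannot reach an exact p under 0.05. With MEF 3 and 4 as 1 sample the autosomal difference was -20.2 points and those of the 5 CpG classes -24.7, -23.6, -15.1, -5.97 and -2.70 (exact permutation p = 0.0571 each), with 0 chromosomes past the threshold. With libraries of the ESC kind only they were -17.9 and -24.7, -23.2, -13.9, -5.002 and -2.27 (exact permutation p = 0.4 each), with 0 chromosomes, adjacent shares of 67.2 and 16.5%, and 0 tiles called more or less negative in female cells (0%). Leaving out each sample in turn gave -21.2 to -20.4 points over all CpGs and, by class, -25.5 to -24.3, -24.1 to -23.3, -15.8 to -15.1, -7.31 to -5.94 and -3.69 to -2.68 (exact permutation p = 0.0571), 0 chromosomes, 33.1 to 34.9% in the bin from 40 to 50%, 73.7 to 75.9% of neighbours lower, and 22994 to 27669 tiles lower.

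Samples that share a replicate number did not deviate together (correlations -0.0128 to 0.00145). With the replicate block, 22831 tiles were lower and 604 higher, and none of the promoter, germline or imprinted counts moved by over 1.5 times. At these depths the test called 55 of 100 simulated losses of 25 points. Calls by depth within a CpG class were not tested.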
